A study of Homo sapiens with 12 samples.

Results

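PPARA, the gene of peroxisome proliferator-activated receptor alpha, and 8 genes of fatty acid oxidation and its control were followed in 3 lines of non-small cell lung cancer given a hairpin against MARK2. The genes were taken by symbol: PPARA, its relative PPARD and the coactivator gene PPARGC1A; CPT1A and CPT2 of the carnitine shuttle; ACADM, ACADVL and HADHA of mitochondrial beta-oxidation; and PDK4, a switch of fuel choice. They are 9 of the 18132 genes named on the array and 35 of its 44988 probe sets with 1 gene symbol. The set was chosen on the signal of PPARA, which was higher in all 3 lines on these same arrays, so its values are a description with no test. The question put to the other 8 genes was whether they moved with it.

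PPARA encodes a nuclear receptor that binds fatty acids and, paired with a retinoid X receptor, activates genes of fatty acid uptake and oxidation; it is best known for this in the liver during fasting. Oxidation in mitochondria starts when CPT1A on the outer membrane and CPT2 on the inner membrane carry long-chain fatty acids inside as carnitine esters. Acyl-CoA dehydrogenases such as ACADVL (very long chains) and ACADM (medium chains) and the trifunctional protein, of which HADHA is the alpha subunit, then shorten the chain, while PDK4 keeps pyruvate out of the mitochondrial pathway by phosphorylating pyruvate dehydrogenase.

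The lines were H1650, H1693 and H1993, which the submitters picked for their excess of MARK2, a serine/threonine kinase of microtubule regulation and cell polarity. A lentivirus brought into each line either a short hairpin RNA against MARK2 (the hairpin arrays) or the empty pLKO vector (the vector arrays). All 6 groups therefore carry a lentiviral vector, and each holds 2 biological replicates, for 12 Affymetrix arrays in all. The labels used here do not state the hairpin sequence, how many hairpins there were, how long after transduction RNA was taken or whether cells were selected.

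Array values are log2 signals, so a difference of 1 is a doubling of the signal; a gene is represented by its brightest probe set unless another is named. MARK2 fell in H1993, from 9.12 ± 0.08 to 6.77 ± 0.01 (mean ± SD, n = 2; limma adjusted p = 6.5e-06), and in H1693, from 7.86 ± 0.15 to 6.60 ± 0.04 (limma adjusted p = 0.000258). In H1650 it read 5.94 ± 0.19 on the vector arrays and 5.65 ± 0.38 on the hairpin arrays, which overlap (limma adjusted p = 0.156), so a fall of the target was not shown there. The H1650 libraries also stood apart in RNA integrity: GAPDH signal at the 3' end exceeded that at the 5' end by 2.68 ± 0.56 on the vector arrays and by 6.82 ± 0.07 on the hairpin arrays (log2, n = 2), against -0.12 to 0.02 on the 8 arrays of the other lines. In H1650 the hairpin and RNA integrity cannot be told apart, and each comparison below is given for H1693 and H1993 apart from H1650. All 12 listed lung epithelial markers reached log2 5 in every group, with EPCAM, KRT18 and KRT19 bright, while NKX2-1, NAPSA and SFTPB, which mark the alveolar lineage, had group means between 6.66 and 7.98. Of the 12, 4 rose and 1 fell in H1693, beside 17.1% of all genes higher and 15.9% lower. In H1993 4 rose, beside 18.9%. In H1650 2 rose and 6 fell, beside 36.7% and 16.7%, with changes down to -4.47. Their summed log2 signal on vector and hairpin arrays was 136 and 130 in H1650, 128 and 130 in H1693, and 143 and 145 in H1993. The part of these markers in the results was not tested. Of 6 hepatocyte markers 4 or 5 reached log2 5 in each group (summed log2 signal 32.7 to 35.9), of 8 adipocyte and muscle markers 6 to 8 (45.3 to 51.7) and of 9 leukocyte and stromal markers 7 or 8 (56.2 to 62.0), with PTPRC, which marks leukocytes, below log2 5 in all 6 group means. Of that last list LYZ and COL1A1 rose in H1993, by 1.70 and 0.59. LYZ rose from a vector mean of 4.48, below log2 5, and its other set read 0.24. In H1693 COL1A1 rose by 0.67 and CD68 fell by 0.30, and for both genes the sets there include the opposite sign. The part of these genes in the results was not tested. In such bulk RNA, fewer cells of a kind and less RNA per cell cannot be told apart.

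Promoter sequence is shown for PPARA, for CPT2 and HADHA, the genes of the set that rose in both H1693 and H1993, and for CPT1A, the entry step, which passed the test in no line. RefSeq (GRCh38.p14) gave start-site windows for all 9 genes, 12 windows in all, and the 250 bases before the start were searched on both strands. PPARA binds, with its partner, a direct repeat made of AGGTCA, any 1 base, and AGGTCA again. Capitals mark the closest match to those 12 fixed letters, and where the match lies on the other strand the capitals read as its complement.

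PPARA, chr22:46150276-46150525, plus strand: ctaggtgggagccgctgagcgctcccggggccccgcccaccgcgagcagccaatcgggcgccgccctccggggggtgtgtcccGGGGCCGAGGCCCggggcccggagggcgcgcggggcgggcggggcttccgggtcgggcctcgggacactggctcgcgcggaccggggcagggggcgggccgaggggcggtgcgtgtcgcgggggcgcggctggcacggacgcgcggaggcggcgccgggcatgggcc
CPT2, chr1:53196574-53196823, plus strand: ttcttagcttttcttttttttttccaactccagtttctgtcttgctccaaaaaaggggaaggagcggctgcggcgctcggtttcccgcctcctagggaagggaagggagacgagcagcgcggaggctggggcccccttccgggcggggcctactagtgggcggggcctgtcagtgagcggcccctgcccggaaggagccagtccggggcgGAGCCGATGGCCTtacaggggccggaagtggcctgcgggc
HADHA, chr2:26244633-26244882, minus strand: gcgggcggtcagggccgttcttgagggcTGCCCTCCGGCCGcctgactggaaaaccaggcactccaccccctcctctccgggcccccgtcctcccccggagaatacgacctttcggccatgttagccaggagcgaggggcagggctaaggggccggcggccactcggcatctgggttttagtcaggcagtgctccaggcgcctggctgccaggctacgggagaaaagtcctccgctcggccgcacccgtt
CPT1A, chr11:68844278-68844527, minus strand: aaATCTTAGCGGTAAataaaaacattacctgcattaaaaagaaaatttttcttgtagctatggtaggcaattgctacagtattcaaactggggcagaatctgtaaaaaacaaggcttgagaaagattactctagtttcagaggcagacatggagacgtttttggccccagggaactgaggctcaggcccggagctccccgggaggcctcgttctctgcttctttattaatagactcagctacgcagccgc

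The closest match had 8 of 12 letters for HADHA, which 68.73% of the 35114 windows of this length equal or better, and 7 letters in the windows printed for PPARA, CPT2 and CPT1A, which 99.39% do. A second PPARA window had 8 letters, and the closest of all 12, with 9, was the second window of PPARGC1A, which 17.97% equal or better. None of the 12 windows holds a single AGGTCA, against 12.08% of all windows, and none holds TCAAGGTCA, the site bound by estrogen-related receptors, against 0.319%. These counts say only that the letters are not in these short windows. The HADHA start lies 307 bases from that of HADHB, the beta subunit gene of the same enzyme, which is read in the opposite direction.

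PPARA stood higher on the hairpin arrays of each line by its brightest probe set, 11724413_s_at. In H1693 the vector arrays read 5.91 and 5.88 and the hairpin arrays 7.65 and 7.67, a difference of 1.77 or 3.41-fold. In H1993 they read 7.40 and 7.63 against 8.92 and 8.86, a difference of 1.37 or 2.59-fold. In H1650 they read 8.58 and 8.71 against 9.82 and 9.81, a difference of 1.17 or 2.25-fold. No hairpin array overlapped a vector array in any line; the same is true, hairpin above vector, of 32.9% of the 16205 genes tested in H1693, of 34.7% in H1993 and of 51.1% in H1650. Larger differences upward were read for 35 genes in H1693, 147 in H1993 and 289 in H1650. The line with the lowest level on its vector arrays, H1693, had the largest difference, and that with the highest, H1650, the smallest.

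The 9 probe sets of PPARA did not read alike. A second bright set, 11724411_a_at, showed differences of 1.51 in H1693, 1.17 in H1993 and 0.79 in H1650. The other 7 sets, all dimmer, lay between -0.29 and 0.24 in H1693, between -0.13 and 0.31 in H1993 and between -1.31 and 0.11 in H1650. With all 9 sets averaged the difference was 0.40 in H1693, 0.36 in H1993 and 0.03 in H1650. The spread of a gene's probe set differences was larger for PPARA than for 99.6% of the 6995 genes with 3 or more sets in H1693, 97.7% in H1993 and 80.1% in H1650. The account of PPARA therefore rests on 2 of its 9 probe sets, and where each set lies along the transcript was not analysed here.

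**Figure D1:**
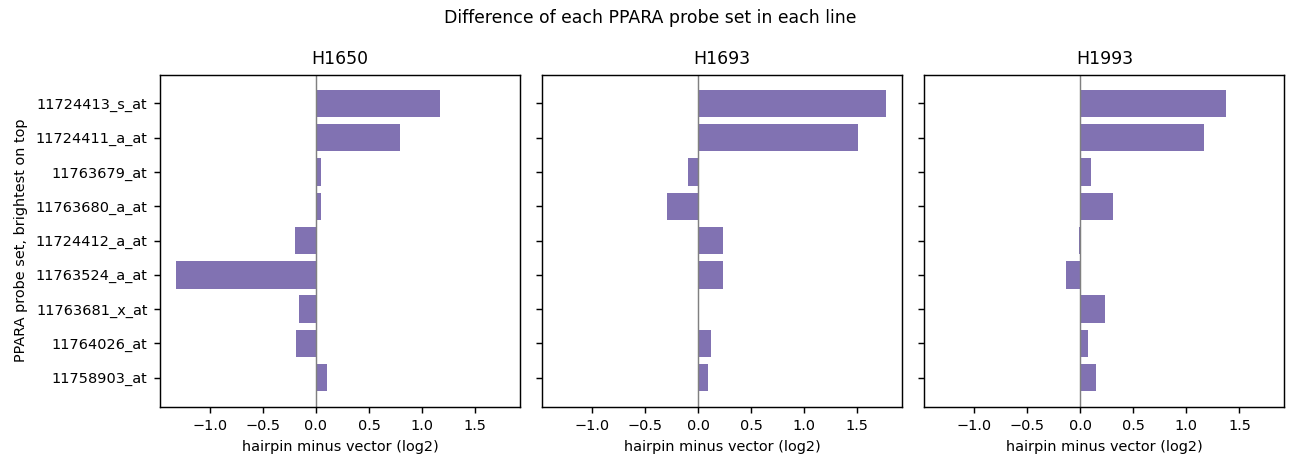
Difference between hairpin and vector arrays (log2, x axis; mean of 2 arrays minus mean of 2 arrays) for each of the 9 PPARA probe sets (y axis, brightest on top) in H1650, H1693 and H1993. The 2 brightest sets lie between 0.79 and 1.77 in the 3 lines, and the other 7 between -1.31 and 0.31.

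PPARD, the broadly expressed relative of PPARA, passed the test in no line. In H1693 its vector arrays read 8.39 and 8.28 and its hairpin arrays 8.55 and 8.53, without overlap, a change of 0.21 ± 0.08 (SE; limma adjusted p = 0.0879). In H1993 the arrays overlapped, at 8.76 and 8.97 against 8.96 and 9.0, a change of 0.11 (limma adjusted p = 0.354). In H1650 the change was 0.13, below the shift of the median gene there, which was 0.15. The dimmer set 11735395_at went the other way in H1693, by -0.36 (limma adjusted p = 0.0486 over the 38924 probe sets tested), so the direction for PPARD depends on the probe set.

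PPARGC1A encodes PGC-1alpha, the coactivator that joins PPARA and other receptors to mitochondrial gene programmes. It was read above log2 5 in H1993 alone, and entered the test through that line. There the vector arrays read 7.91 and 8.03 and the hairpin arrays 7.79 and 7.84, a change of -0.15 ± 0.11 (SE; limma adjusted p = 0.351) with hairpin below vector on both arrays. In H1693 all arrays lay between 3.75 and 4.23, with a change of -0.30 (limma adjusted p = 0.0645), and in H1650 between 4.05 and 4.23. At such signals differences are compressed, and a change in the amount of transcript was not detectable in those lines.

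The partners of PPARA did not share one pattern. RXRA, the main retinoid X receptor of liver and epithelia, changed by 0.02 in H1693 and -0.22 in H1993, neither past the test (limma adjusted p = 0.943 and 0.268), and fell by 0.92 in H1650 (limma adjusted p = 0.00035). RXRB rose in H1693 by 0.40 ± 0.09 (SE; limma adjusted p = 0.00587), with its 5 probe sets between -0.01 and 0.66, and read -0.02 in H1993. RXRG passed in no line and read 0.10 in H1993. PPARG, the receptor of fat storage, passed in neither of those lines, reading 0.02 in H1993, and rose by 0.85 in H1650 (limma adjusted p = 1.2e-05).

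**Figure D2:**
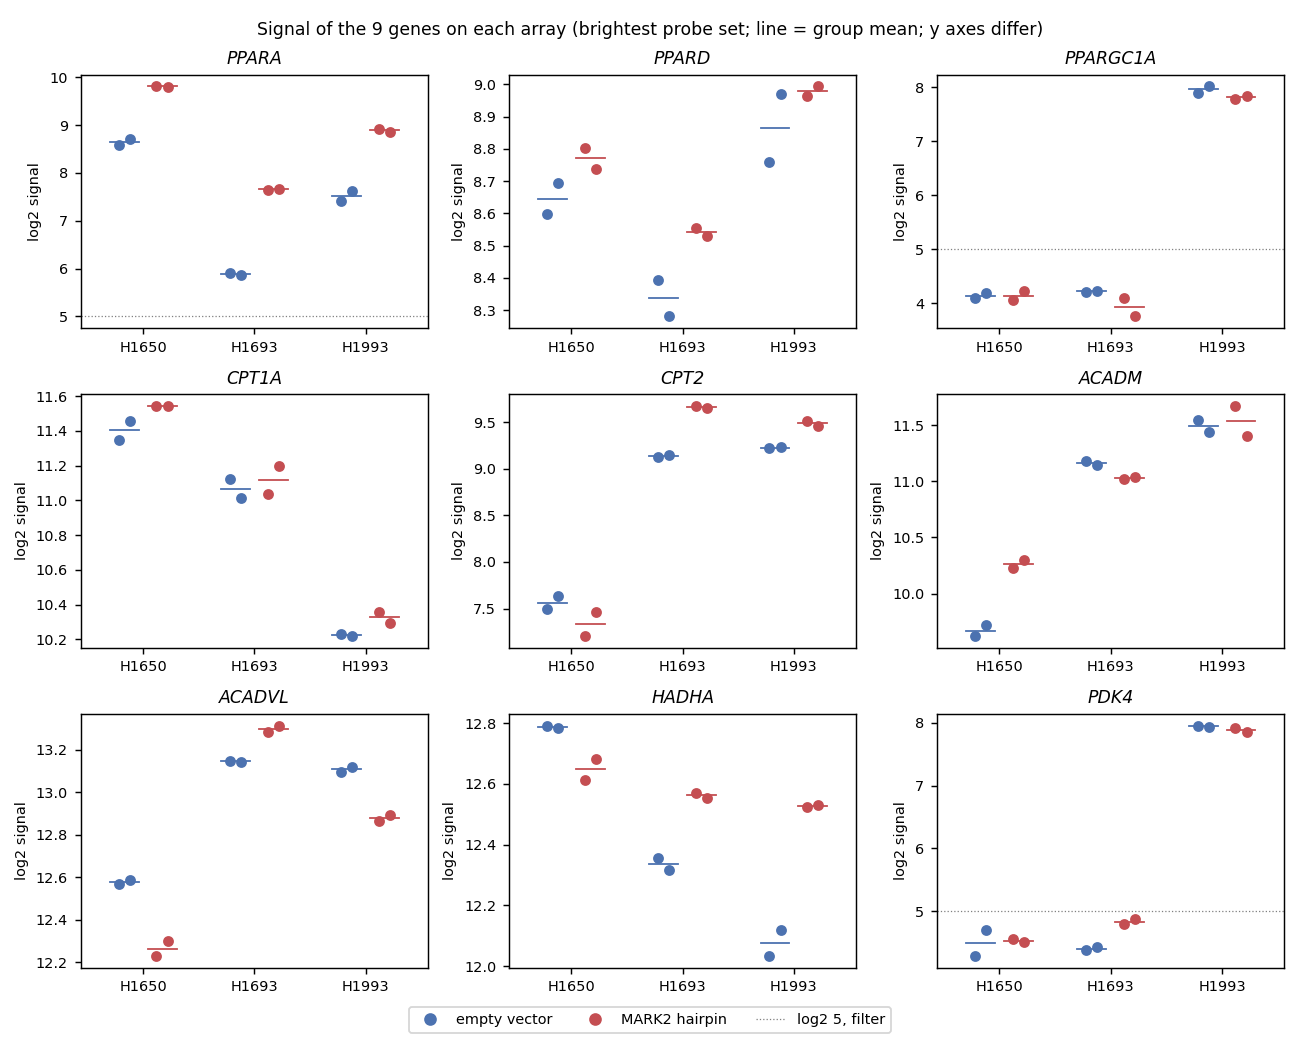
Log2 signal (y axes, which differ between panels) of PPARA and the 8 other genes on each of the 12 arrays, by line (x axis); blue points are empty vector, red points MARK2 hairpin, short lines the mean of 2 arrays, and the dotted line the log2 signal of 5 used in the filter. PPARA is separated in all 3 lines, CPT2 and HADHA have both hairpin points above the vector points in H1693 and H1993 and below them in H1650, and PPARGC1A and PDK4 are above log2 5 in H1993 alone.

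CPT1A, which governs entry of long-chain fatty acids and is a classical PPARA target in liver, did not pass in any line. In H1693 the vector arrays read 11.12 and 11.01 and the hairpin arrays 11.04 and 11.20, overlapping, a change of 0.05 (95% interval -0.12 to 0.23; limma adjusted p = 0.659). In H1993 they read 10.23 and 10.22 against 10.36 and 10.3, a change of 0.10 (95% interval -0.07 to 0.27; limma adjusted p = 0.378). In H1650 the change was 0.14 (95% interval -0.03 to 0.31; limma adjusted p = 0.154), beside a median gene at 0.15. In H1693 and H1993 these intervals end at 0.23 and 0.27, where the brightest PPARA set differed by 1.77 and 1.37. In H1650 the interval ends at 0.31, where that set differed by 1.17. The PPARA difference averaged over all its sets, given above, was smaller in each line. The second CPT1A set, 11732937_a_at, read -0.23 in H1693 and -0.15 in H1993, below vector on both hairpin arrays in each, so the sign of CPT1A depends on the probe set.

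CPT2, which turns the carnitine esters back into acyl-CoA inside the mitochondrion, rose in H1693. Its vector arrays read 9.12 and 9.15 and its hairpin arrays 9.67 and 9.65, a change of 0.53 ± 0.09 (SE), or 1.44-fold (limma adjusted p = 0.0013). In H1993 it rose from 9.22 and 9.23 to 9.51 and 9.46, by 0.26 or 1.20-fold (limma adjusted p = 0.0463), a call close to the threshold: it was lost under 12 of 21 other settings, with an adjusted p between 0.00885 and 0.174. In H1650 it read 7.49 and 7.64 against 7.20 and 7.46, a change of -0.23 (limma adjusted p = 0.0468), which was lost under 14 of 20 other settings (adjusted p between 0.0056 and 0.852). The groups do not overlap in any line. CPT2 has 1 probe set on the array, so no second reading of it exists here.

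HADHA rose in H1993 and in H1693. In H1993 the vector arrays read 12.03 and 12.12 and the hairpin arrays 12.52 and 12.53, a change of 0.45 ± 0.06 (SE), or 1.37-fold (limma adjusted p = 0.00039). In H1693 they read 12.36 and 12.32 against 12.57 and 12.55, a change of 0.23 or 1.17-fold (limma adjusted p = 0.0184). All 4 HADHA probe sets had both hairpin arrays above both vector arrays in each of these lines, by 0.23 to 0.26 in H1693 and 0.21 to 0.45 in H1993, and only the brightest passed on its own in each line. In H1693 the 4 differences lay within 0.03 of each other, and 0.715% of genes with 3 or more sets had a smaller spread. The H1693 call was lost with any of that line's 4 arrays left out and with the replicate number as a block (limma adjusted p between 0.0135 and 0.108 over 21 other settings), while the change stayed between 0.21 and 0.24 with an array left out. HADHB, the partner subunit, looked up after the values of HADHA were seen, rose by 0.20 in H1993 (limma adjusted p = 0.0417) and read 0.10 in H1693 (limma adjusted p = 0.331).

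ACADVL, the very long chain dehydrogenase that takes the first step of the spiral, had changes of opposite sign in these lines, of which that in H1993 passed. In H1993 it fell from 13.10 and 13.12 to 12.87 and 12.89, a change of -0.23 ± 0.06 (SE), 85.4% of the vector level (limma adjusted p = 0.0134); without hairpin replicate 1 or vector replicate 2 of that line the adjusted p was 0.0714 and 0.069, in a range of 0.00102 to 0.0714 over 21 other settings. In H1693 it read 13.15 and 13.14 against 13.28 and 13.31, hairpin above vector, a change of 0.15 that did not pass (limma adjusted p = 0.0725). The dimmer sets gave the same directions with larger sizes: 11745736_a_at rose by 0.78 in H1693 and fell by 0.82 in H1993 (limma adjusted p = 0.00058 and 0.0004 over all probe sets), and 11744255_a_at read 0.50 and -0.36. The difference between the changes of H1993 and H1693 was -0.38 ± 0.08 (SE; limma adjusted p = 0.0095), and it passed under all 21 other settings run (adjusted p between 0.00024 and 0.0406).

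ACADM, the medium chain dehydrogenase, showed no change that passed in H1693 or H1993. In H1693 the arrays read 11.18 and 11.15 against 11.02 and 11.03, a change of -0.14 (limma adjusted p = 0.298) with hairpin below vector in 6 of its 7 probe sets. In H1993 all 7 sets overlapped and lay between -0.04 and 0.16. Its 95% intervals ran from -0.34 to 0.07 in H1693 and from -0.16 to 0.25 in H1993.

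PDK4 is a PPARA target in many tissues, and rises in fasting. It was above log2 5 in H1993 alone, where the vector arrays read 7.96 and 7.94 and the hairpin arrays 7.91 and 7.86, a change of -0.06 (95% interval -0.31 to 0.19; limma adjusted p = 0.748). In H1693 the brightest set read 4.38 and 4.42 against 4.79 and 4.87, a difference of 0.43 (limma adjusted p = 0.0148) with all arrays below log2 5, while the second set, 11716975_a_at, read -0.35 there. With both sets averaged the H1693 change was 0.04 (limma adjusted p = 0.748), and the call was also lost without hairpin replicate 2 or either vector array of the line (adjusted p between 0.0008 and 0.748 over 21 other settings). The 2 sets thus give no shared direction for PDK4 in H1693, and no rise is read from them.

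Counted together, 3 of the 8 genes passed in H1693, CPT2, HADHA and, below log2 5, PDK4, each with the hairpin higher, and 3 passed in H1993, CPT2 and HADHA higher and ACADVL lower. Among all 16205 genes tested 33% passed in H1693 (17.1% higher, 15.9% lower) and 33.4% in H1993 (18.9% higher, 14.5% lower). Of the 6 genes with at least 2 arrays of H1693 at log2 5, 2 passed there. In either direction the count of 3 of 8 is near these shares, so it is not a result about these genes as a group. The median change of the 8 was 0.18 in H1693 and 0.07 in H1993, beside -0.02 and 0.02 over all genes. Both hairpin arrays lay above both vector arrays for 5 of the 8 in H1693 and below for 2, where 32.9% and 36.1% of all genes did; in H1993 it was 3 above and 3 below, where 34.7% and 29% did. Leaving out vector replicate 1, vector replicate 2 or hairpin replicate 2 of H1693 left 1 gene past the threshold there, and leaving out hairpin replicate 1 or vector replicate 2 of H1993 left 1 in that line. With quantile normalisation the split of higher and lower calls was 3 and 1 in H1693 and 1 and 1 in H1993.

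Probe set by probe set, 24 of the 26 sets of the 8 genes could be tested. In H1693 5 rose and 1 fell, beside 29.1% of all probe sets past the threshold (15.7% higher, 13.4% lower), and in H1993 1 rose and 2 fell, beside 28.7% (15% higher, 13.7% lower). The count of 6 in H1693 was 2 or 3 without vector replicate 1, vector replicate 2 or hairpin replicate 2 of that line, or without either hairpin array of H1993. Under quantile normalisation the H1693 split was 4 higher and 4 lower, and that of H1993 was 1 and 3. With the 4 H1650 arrays left out, 6 sets passed in H1993, 3 in each direction.

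**Figure D3:**
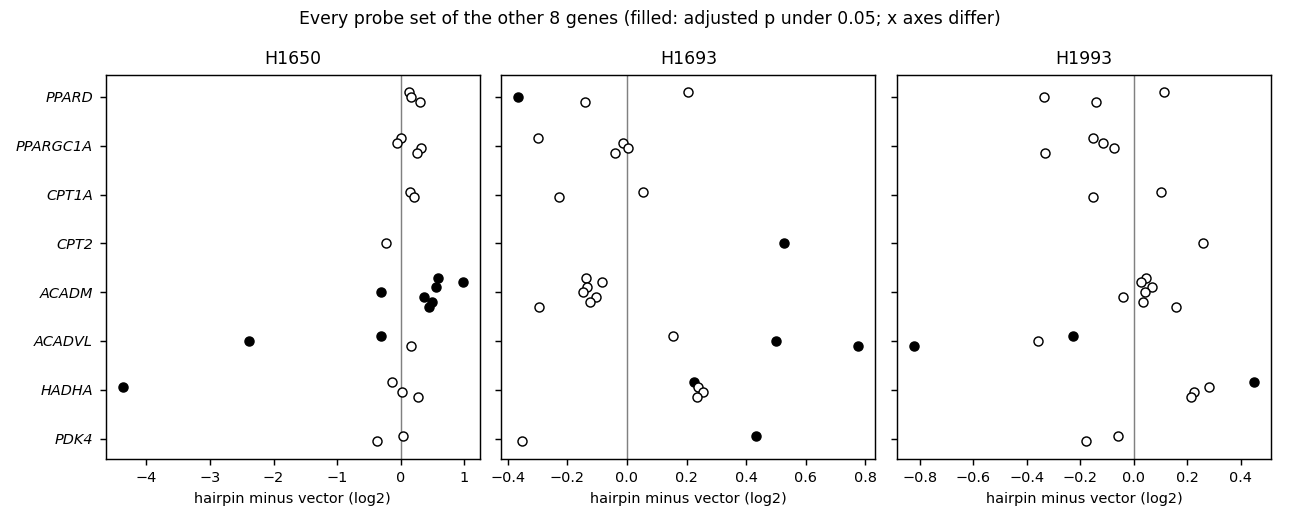
Difference between hairpin and vector arrays (log2, x axes, which differ between panels) of each of the 26 probe sets of the 8 genes other than PPARA (y axis), in H1650, H1693 and H1993; each point is 1 probe set, filled where the limma adjusted p over all probe sets is under 0.05. The 4 HADHA sets lie between 0.21 and 0.45 in H1693 and H1993, the 3 ACADVL sets lie above 0 in H1693 and below 0 in H1993, and 1 HADHA set reaches -4.37 in H1650.

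Between H1993 and H1693 the change differed past the threshold for 1 of the 8 genes, ACADVL, beside 22.1% of all genes (12.6% higher in H1993, 9.48% lower). Of the 24 probe sets 3 differed, the 3 of ACADVL, all lower in H1993, beside 17.3% of all sets (8.6% higher, 8.67% lower). For PDK4, below log2 5 in H1693, no difference between lines is read. For CPT2 the difference was -0.27 (limma adjusted p = 0.164, between 0.0444 and 0.307 over 21 other settings; 95% interval -0.55 to 0.01) and for HADHA 0.23 (limma adjusted p = 0.0986; 95% interval 0.03 to 0.42). Leaving out vector replicate 1 or vector replicate 2 of H1650, which enter the shared estimate of spread, brought the count to 2, through PDK4 alone. A fit to the 8 arrays of H1693 and H1993 added CPT2, and PDK4 again, for a count of 3. By an F test of the change over all 3 lines 4 of the 8 passed (CPT2, ACADM, ACADVL and HADHA), beside 54.9% of all genes, so this count is not a result about these genes.

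In H1650 the 8 genes went in mixed directions: ACADM rose by 0.59 (limma adjusted p = 0.00042), ACADVL fell by 0.31 (limma adjusted p = 0.0013) and CPT2 read -0.23, as given above. Hairpin arrays lay above vector for 3 of the 8 and below for 3, beside 51.1% and 22.4% of all genes. The 3 calls stand beside 53.4% of all genes past the threshold in that line (36.7% higher, 16.7% lower), and the median over all genes moved by 0.15. ACADM read 9.62 and 9.72 against 10.23 and 10.3 by its brightest set, and its 7 sets ran from -0.31 to 0.97, of which 6 rose and 1 fell. HADHA read 12.79 and 12.79 against 12.61 and 12.68 by 11715523_a_at, a change of -0.14 (limma adjusted p = 0.0812). By 11754123_s_at the same gene read 9.96 and 9.25 against 5.43 and 5.04, a fall of 4.37 on the log2 scale (limma adjusted p = 7.3e-08 over all probe sets). ACADVL behaved likewise: 11745737_x_at read -0.31, 11744255_a_at -2.39 and 11745736_a_at 0.16.

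Such gaps between probe sets of a gene were a feature of H1650: the sets of HADHA spread more there than those of 99.7% of genes with 3 or more sets, and those of ACADVL more than those of 97%. The median spread over those genes was 0.34 in H1650, against 0.14 in both other lines. In all, 6 of the 24 probe sets rose and 4 fell in H1650, beside 51.3% of all sets past the threshold (30% higher, 21.3% lower). With all probe sets of a gene averaged, 5 of the 8 genes passed (2 higher, 3 lower), and under quantile normalisation 4 did (1 higher, 3 lower). With the integrity measure of GAPDH added as a covariate none of the 8 passed by limma, with 1 at an unadjusted p under 0.05, but neither did any of the 16205 genes, so the count says nothing about these genes; the PPARA difference was 0.48. The covariate runs with the hairpin in this line, and the median SE went from 0.09 to 0.57.

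**Figure D4:**
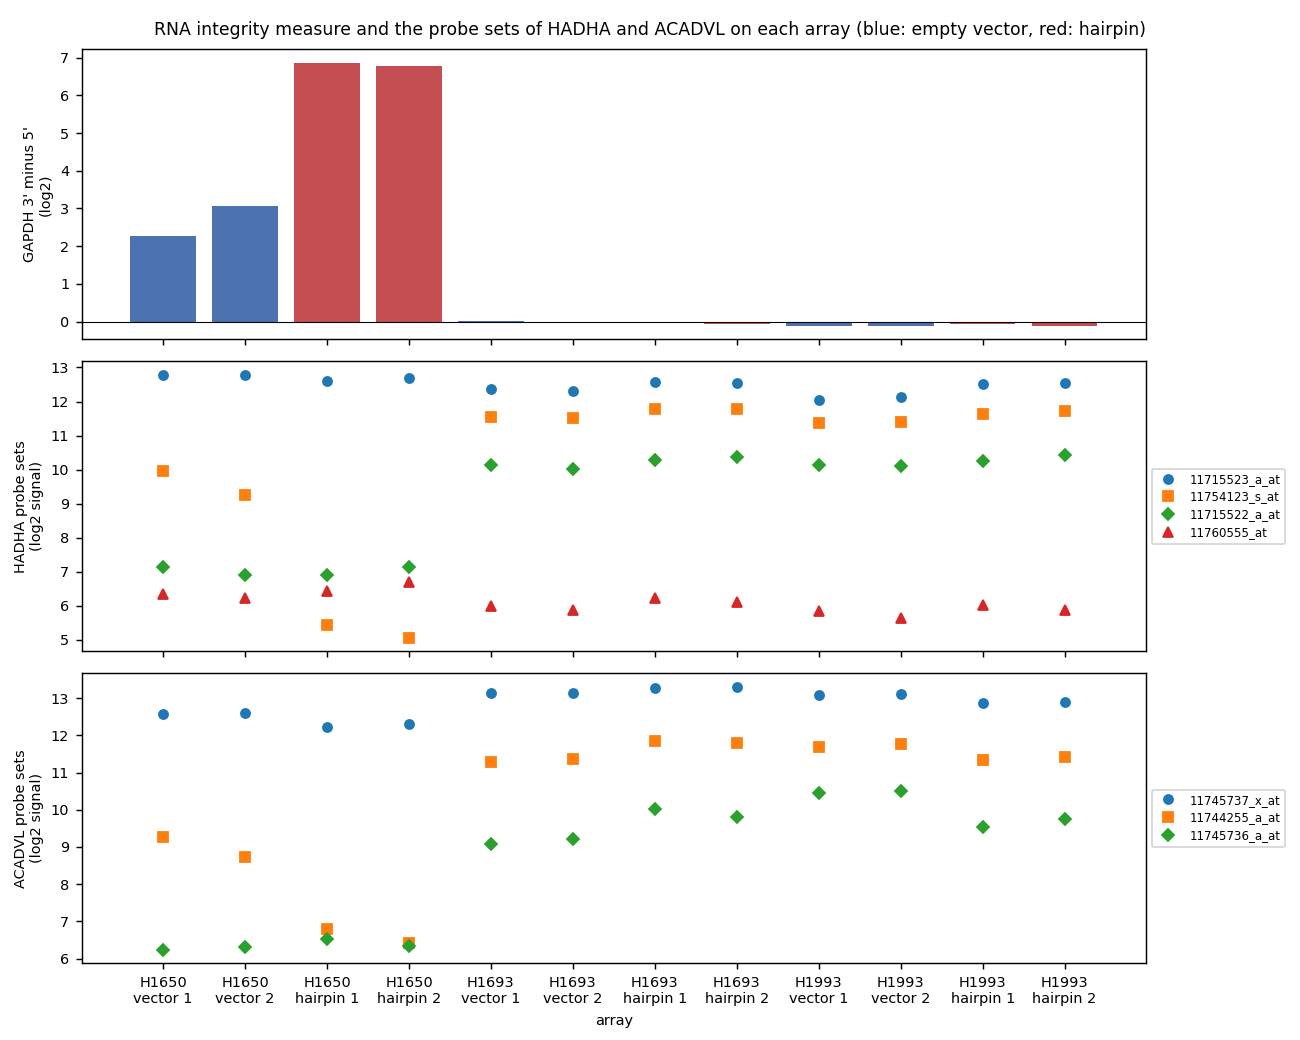
Top: difference between 3' and 5' GAPDH control probe sets (log2, y axis) on each array (x axis), blue for empty vector and red for MARK2 hairpin. Middle and bottom: log2 signal of the 4 HADHA and 3 ACADVL probe sets on the same arrays; on the H1650 hairpin arrays, where the GAPDH difference averages 6.82, HADHA set 11754123_s_at drops to 5.43 and 5.04 while 11715523_a_at stays at 12.61 and 12.68.

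The wider oxidation pathway was read through 3 lists, the carnitine shuttle and the mitochondrial and peroxisomal enzymes of beta-oxidation. Without the 9 genes above they hold 35 tested genes. ABCD4, on the peroxisomal list, encodes a lysosomal cobalamin transporter rather than an enzyme of this pathway. Its rises in H1693 and H1650 are in the counts. In H1693 11 of the 35 rose and 2 fell, beside 17.1% of all genes higher and 15.9% lower, and their median change was 0.16, beside -0.02 over all genes. In H1993 8 rose and 3 fell, beside 18.9% and 14.5%, with a median of 0.05 beside 0.02. Of the 13 calls in H1693 8 were left without hairpin replicate 1, 6 without hairpin replicate 2 and 5 without vector replicate 2, and of the 11 in H1993 6 were left without vector replicate 1 or either hairpin array. Quantile normalisation gave 11 higher and 2 lower in H1693 and 6 higher and 4 lower in H1993. In H1650 18 rose and 8 fell (14 and 11 under quantile normalisation), beside 36.7% and 16.7%, and with the GAPDH covariate none of them passed by limma, as none of all 16205 genes did, with 2 of the 35 at an unadjusted p under 0.05.

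In the carnitine shuttle, which here includes CPT1A and CPT2, 4 of 6 tested genes rose in H1993 and the other 2 did not pass, and in H1693 CPT2 alone of the 6 passed, beside 18.9% and 17.1% of all genes higher. One of the 4 is CPT2, whose H1993 call is close to the threshold, as given above. SLC25A20, the translocase that exchanges acylcarnitines across the inner membrane, rose in H1993 by 0.64 ± 0.07 (SE; limma adjusted p = 9.8e-05) and read 0.19 in H1693. CRAT, carnitine acetyltransferase, rose by 0.40 in H1993 and read 0.17 in H1693. CPT1C, a brain-type relative of CPT1A, rose by 0.73 in H1993 and did not pass in H1693. The differences between the lines passed for SLC25A20 and CPT1C.

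Among 20 mitochondrial enzymes, ACADM, ACADVL and HADHA included, 8 rose and 1 fell in H1693, beside 17.1% and 15.9% of all genes, and 3 rose and 2 fell in H1993, beside 18.9% and 14.5%. In H1693 the largest rises were ACAD10 (0.66 ± 0.09, SE), ETFDH (0.39) and ECI1 (0.39). In H1993 these genes read -0.05, 0.06 and -0.03. ACAD10 is an acyl-CoA dehydrogenase relative, ETFDH passes electrons from these dehydrogenases to ubiquinone and ECI1 is an enoyl-CoA isomerase. The 6 ACAD10 sets lay between 0.03 and 0.66 in H1693. ACADS, the short chain dehydrogenase, rose in both lines, by 0.35 in H1693 and 0.40 in H1993. HADH, which oxidises short and medium 3-hydroxyacyl-CoA, fell in both, by 0.24 in H1693 and 0.45 in H1993 (limma adjusted p = 0.016 and 0.00045). The difference between lines passed for 5 of the 20, all lower in H1993. Among all genes 9.48% were lower in H1993 and 12.6% higher.

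Of 14 tested genes on the peroxisomal list 4 rose and 1 fell in H1693, beside 17.1% of all genes higher and 15.9% lower. In H1993 the count was 3 higher and 2 lower, beside 18.9% and 14.5%. In H1993 CROT, carnitine octanoyltransferase, rose by 0.72 by its brightest set, with its 4 sets between -0.24 and 1.07, DECR2 rose by 0.42 and ACOX2, a branched-chain acyl-CoA oxidase, fell by 0.90 (limma adjusted p = 0.0016). In H1693 ACOT8, a peroxisomal thioesterase, rose by 0.62 with 6 sets between -0.09 and 0.74. ABCD4, the lysosomal transporter gene named above, rose by 0.30 there and is 1 of the 4. PEX11A, a classical target of peroxisome proliferators in rodents, fell by 0.27 in H1693, with its other set at 0.09.

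**Figure D5:**
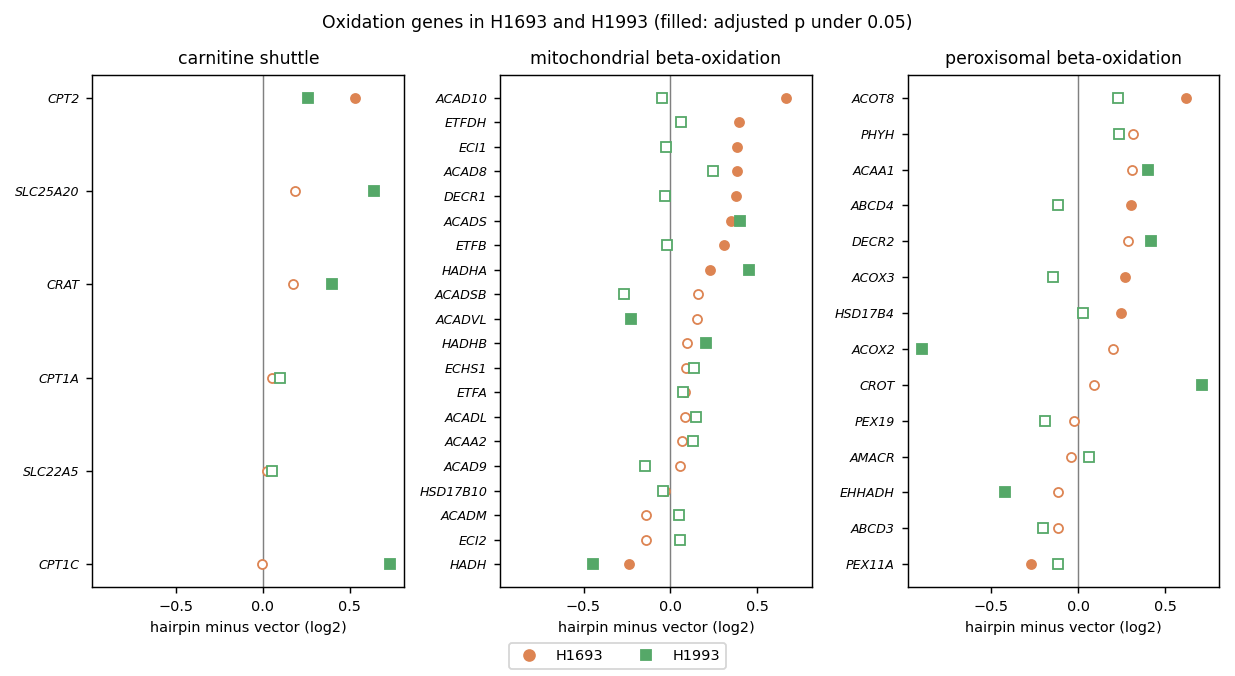
Change on the hairpin arrays (log2, x axis) of each tested gene of the carnitine shuttle, mitochondrial and peroxisomal beta-oxidation lists (y axis), circles for H1693 and squares for H1993, filled where the limma adjusted p is under 0.05. Filled points on the right are 8 mitochondrial genes in H1693 and 3 in H1993, and 1 carnitine shuttle gene in H1693 and 4 in H1993; ACOX2 in H1993 lies farthest left, at -0.90.

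Genes that feed, store or sense fatty acids gave no single direction. Of 15 genes of uptake and activation 1 rose and 4 fell in H1693, beside 17.1% of all genes higher and 15.9% lower. In H1993 the count was 2 higher and 3 lower, beside 18.9% and 14.5%. In H1993 the mitochondrial acetyl-CoA synthetase ACSS1 rose by 1.62 and the very long chain acyl-CoA synthetase SLC27A2 by 1.36, while SLC27A5 fell by 0.91. SLC27A2 fell in H1693 by 0.33 (limma adjusted p = 0.0315), and its changes differed between the lines by 1.68 (limma adjusted p = 6.1e-05). In H1693 the fatty acid binding protein gene FABP5 fell by 0.84, SLC27A5 fell by 0.59 and the long-chain acyl-CoA synthetase ACSL1 rose by 0.61. Of 14 genes of storage and lipolysis 3 rose and 3 fell in H1693, and 5 rose and 3 fell in H1993, beside the same shares of all genes. By its brightest set ABHD5, the coactivator of adipose triglyceride lipase, fell by 0.96 in H1693 and 0.48 in H1993. PNPLA2, the lipase itself, rose by 0.70 and 0.44 by its brightest set. The 6 ABHD5 and 3 PNPLA2 sets include the opposite sign in both lines. DGAT1, which makes triglyceride, rose by 0.43 in H1993, and HILPDA, an inhibitor of that lipase, fell by 0.56 in H1693.

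Of 15 other genes often listed as PPAR targets, 6 rose and 1 fell in H1693 and 6 rose and 9 did not pass in H1993. Among all genes 17.1% were higher in H1693 and 18.9% in H1993. The 6 rises in H1693 include PDK4, which lay below log2 5 there and from which no rise is read. The largest rises were those of TXNIP, a glucose-responsive gene, and CYP1A1, the classical target of the aryl hydrocarbon receptor. TXNIP rose by 1.03 in both lines, and CYP1A1 by 2.18 in H1993 and 0.63 in H1693. The 2 CYP1A1 sets lay between 1.86 and 2.18 in H1993 and between 0.12 and 0.63 in H1693. Which regulator moved these genes was not tested. BDH1, of ketone body metabolism, fell by 0.61 in H1693. Chosen after their values were seen, PLIN2, which coats lipid droplets, rose by 0.36 ± 0.07 in H1693 and 0.22 ± 0.07 in H1993 (SE; limma adjusted p = 0.0025 and 0.0319), and ANGPTL4, an inhibitor of lipoprotein lipase, by 0.46 ± 0.13 and 0.37 ± 0.13 (limma adjusted p = 0.0193 and 0.0485). In H1650 PLIN2 rose by 0.39 by this set, with its other set at -1.31, and ANGPTL4 fell by 2.13. VNN1, FGF21, CREB3L3 and CYP4A11, also looked up afterwards, showed no rise past the test in H1693 or H1993. VNN1, FGF21 and CREB3L3 read -0.14, -0.14 and -0.29 in H1693, and -0.01, 0.04 and 0.08 in H1993. CYP4A11 read 6.73 on vector and 6.34 on hairpin arrays in H1693, and 6.66 and 6.55 in H1993. The list of 15 overlaps those above, since it holds CPT1A, PDK4, SLC25A20 and ACSL1.

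Among the genes of pyruvate dehydrogenase and its control, PDK4 included, more fell than rose in H1693 and H1993. Of 11 tested 3 rose and 6 fell in H1693, beside 17.1% of all genes higher and 15.9% lower. The 3 rises include PDK4, which lay below log2 5 in H1693 and from which no rise is read. In H1993 1 rose and 6 fell, beside 18.9% and 14.5%. The medians were -0.33 in H1693 and -0.32 in H1993, beside -0.02 and 0.02 over all genes. In H1650 5 rose and 2 fell, beside 36.7% and 16.7%, with a median of 0.24 beside 0.15 over all genes. PDK3, another of the inhibitory kinases, fell by 0.64 ± 0.09 and 0.57 ± 0.09 (SE), and DLAT, the E2 subunit, fell by 0.47 in H1693 and 0.36 in H1993. PDHX, which anchors E3, fell by 0.60 in H1993 and 0.29 in H1693, and PDPR, the regulatory subunit of the phosphatase, fell by 0.61 in H1993. PDK2 rose by 0.46 in H1693. The list thus holds both the enzyme and kinases that silence it, and genes of both kinds fell.

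Malonyl-CoA, made by acetyl-CoA carboxylase, blocks CPT1A, and AMP-activated kinase lowers it. Of 9 genes of this control 3 rose and 2 fell in H1693, beside 17.1% of all genes higher and 15.9% lower. In H1993 the count was 1 higher and 2 lower, beside 18.9% and 14.5%. PRKAA2, a catalytic subunit of the kinase, rose by 1.47 ± 0.11 (SE) in H1693 from a low level and read 0.06 in H1993, and PRKAB2, a regulatory subunit, rose by 0.64 and 0.49, with 1 of its 3 sets near -0.06 and -0.07. ACACA, the carboxylase, fell by 0.33 in H1693, and MLYCD, which breaks malonyl-CoA down, fell by 0.37 in H1993. PRKAB1 fell by 0.27 in H1993.

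Among 17 tested receptors, partners and coregulators, PPARD and PPARGC1A included and PPARA left out, 2 rose and 2 fell in H1693. Among all genes 17.1% were higher and 15.9% lower there. In H1993 3 rose and 3 fell, beside 18.9% and 14.5% of all genes. PPARGC1A, counted in both lines, passed in neither, and its signal in H1693 was too low for a change to be detectable. MED1, the Mediator subunit that binds nuclear receptors, fell by 0.75 ± 0.10 in H1993 (SE; limma adjusted p = 0.0003) and by 0.37 in H1693. SIRT1, the deacetylase that acts on PGC-1alpha, fell by 0.71 and the coactivator gene NCOA2 by 0.67 in H1993. NCOA1, a coactivator of the same family, rose by 0.58 in H1693 and 0.31 in H1993 by its brightest set. Its 6 sets lay between 0.50 and 0.62 in H1693 and between -0.15 and 0.31 in H1993. PPRC1, a relative of PPARGC1A, fell by 0.54 in H1693 and read -0.04 in H1993.

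Across the 12 arrays, each set against its line's mean, the genes whose signal ran closest to that of PPARA were ITGA5 (Pearson r = 0.996), the integrin alpha 5 gene, FAM210B (0.995), CLIP4 (0.994), USP25 (0.994), a deubiquitinase gene, and MGAT4A (0.993), a glycosyltransferase gene, of 16196 ranked. Over the 8 arrays of H1693 and H1993 the r values of these 5 were between 0.993 and 0.997. Each of them was higher with the hairpin in all 3 lines, ITGA5 by 0.86 in H1693, 0.57 in H1993 and 0.53 in H1650. On the same measure PPARD had r = 0.84, CPT1A 0.66, HADHA 0.64, CPT2 0.61, PDK4 0.56, ACADM 0.31, ACADVL -0.38 and PPARGC1A -0.64; without H1650 these were 0.83, 0.57, 0.90, 0.98, 0.69, -0.32, -0.06 and -0.77 in the same order, with the sign of ACADM turned. These are descriptions: the 12 points share the division into hairpin and vector arrays. Any gene that differs the same way in each line scores high. PDK4 and PPARGC1A lay below log2 5 on the H1650 and H1693 arrays, so their r values rest partly on signals too low to read.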

How the data were processed

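Total RNA of 12 samples was read on Affymetrix PrimeView arrays. The deposited values are log2 signals that the authors made with Affymetrix Expression Console by RMA, per the submitters' processing notes; these name no version, and RMA compresses differences at low signal. The 9 genes and all gene lists were chosen with earlier results of these data known. Probe sets were named from the platform annotation: of 49395, 44994 have 1 symbol, 1832 several and 2569 none, and after 102 control sets 44988 were kept, of which 44961 matched a RefSeq gene ID. Of 166 listed symbols 153 were matched.

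The probe set of highest mean stood for its gene, and genes with at least 2 arrays at log2 5 were tested, 16205 in all. PPARGC1A and PDK4 passed this filter only through H1993. One limma model (limma 3.58.1, R 4.3.3) fitted the 6 group means over all arrays, with two-sided p-values adjusted by Benjamini-Hochberg over all genes and a threshold of 0.05; a second covered 38924 probe sets. It was tested on simulated data. Genes named were, per list, up to 3 past the threshold with the largest change in H1993 and in H1693, the partners of PPARA, and the 5 most correlated with PPARA. HADHB, PLIN2, ANGPTL4, VNN1, FGF21, CREB3L3 and CYP4A11 were named outside this rule, after values had been seen. With 2 samples a group, whose biological replicates are not described further in the labels, p-values measure the spread between these samples, and the number of arrays limits precision. Array medians ran from 7.13 to 7.32 and replicates correlated at 0.996 to 0.998. Alternatives were quantile normalisation, other filters, averaged probe sets, a replicate block, a GAPDH covariate, subsets of arrays and each array left out; the crossed block and the fit without H1650 were chosen after seeing the data.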

Additional observations from a re-analysis of the deposited data

Results flagged for a closer look

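The difference between hairpin and vector arrays varied among H1650, H1693 and H1993 for 4 of the 8 genes other than PPARA, by limma's F test adjusted over all genes, beside 54.9% of all 16205 genes. HADHA had an adjusted p of 0.00099, with changes of -0.14 in H1650, 0.23 in H1693 and 0.45 in H1993. CPT2 had an adjusted p of 0.0017, with changes of -0.23, 0.53 and 0.26. ACADVL had an adjusted p of 0.0021, with changes of -0.31, 0.15 and -0.23, and ACADM one of 0.0024, with changes of 0.59, -0.14 and 0.05. These tests include H1650, in which a fall of MARK2 was not shown and RNA integrity cannot be told apart from the hairpin. Between H1993 and H1693 alone, ACADVL differed by -0.38 (limma adjusted p = 0.0095).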

How the results depend on the processing

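Of 664 member changes recomputed under other settings 583 kept their direction and side of the threshold, 40 lost the call, 17 gained one and 24 changed sign, of which 0 had passed and 0 passed with the other sign. In H1650 the sign turned with the covariate for PPARD (-0.44), PPARGC1A (-0.46), CPT1A (-0.43) and PDK4 (-2.09), under quantile normalisation for PPARGC1A (-0.16) and PDK4 (-0.16), and with probe sets averaged for PDK4 (-0.17). Averaging also turned PPARD in H1693 (-0.10) and H1993 (-0.12), CPT1A in H1693 (-0.088) and H1993 (-0.025) and the difference between those lines for PPARGC1A (-0.081), and quantile normalisation turned that difference for CPT1A (-0.0097). With an array left out the sign was not fixed for PPARGC1A in H1650 (-0.087 to 0.0895), PDK4 in H1650 (-0.17 to 0.24), CPT1A in H1693 (-0.027 to 0.13) and ACADM in H1993 (-0.087 to 0.18), nor for the difference between H1993 and H1693 of PPARD (-0.20 to 0.014), PPARGC1A (-0.021 to 0.31) and CPT1A (-0.034 to 0.13). In H1650 the 3 of 8 genes became 5 with probe sets averaged and 0 with the GAPDH covariate, which also took the 26 oxidation genes and the calls over all 16205 genes to 0. The difference between H1993 and H1693, 1 gene, became 2 under quantile normalisation, the filter at log2 6, the covariate or the crossed block. The gene added there was PDK4. The count became 3 on the arrays of those lines alone, with CPT2 as well. PDK4 lay below log2 5 in H1693, and no difference is read for it. Probe sets past the threshold in H1993 went from 3 to 6 without H1650. With an array left out, its arm's remaining array is assumed to vary like the others. Then the 8 genes gave 1 to 3 calls in H1993, 1 to 3 in H1693 and 2 to 3 in H1650. The oxidation genes gave 6 to 12, 5 to 15 and 22 to 26, the difference 1 to 2, and the probe sets 2 to 4, 2 to 5 and 10 to 11. PPARA read 0.03, 0.40 and 0.36 in H1650, H1693 and H1993 with probe sets averaged. The cause was not tested.

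The labels do not say whether the replicate numbers pair the samples. Same-numbered deviations correlated at -0.11 in H1650, -0.18 in H1693 and 0.29 in H1993, so no pairing was assumed in the main fit. The crossed block swapped the hairpin replicate numbers in H1650 and H1693, where these correlations are negative, and so was set from these same data. With the number as a replicate block 3, 2 and 3 of the 8 genes passed in H1993, H1693 and H1650, 7, 10 and 25 oxidation genes, 3, 5 and 12 probe sets and 1 difference. Low signal limits PPARGC1A and PDK4 in H1650 and H1693.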
